A study of Mus musculus with 12 samples.

Results

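The genotype effect shared by both media was read from all 12 of 12 libraries, 6 labelled KO and 6 labelled WT, with the differentiation medium as a factor. Of the 54532 genes in the deposited table, 11110 protein-coding genes had an FPKM (fragments per kilobase of gene, scaled to library size) of 1 or more in 3 or more libraries and were tested. The cultures were bone marrow mesenchymal stem cells (MSCs) flushed from the femurs, tibiae and humeri of 4-week-old C57BL/6 mice and used at passage 3. The WT controls were Chd7fl/fl and the KO mice Prx1-cre;Chd7fl/fl, so both genotypes carry the floxed Chd7 allele, and the Cre driver acts in early limb mesenchyme. Both media contained dexamethasone, at 10 nM in osteogenic medium (Osteo), which added β-glycerophosphate (10 mM) and 50 µM ascorbic acid, and at 1 µM in adipogenic medium (Adipo), which added 0.5 µM isobutylmethylxanthine and insulin at 10 µg/ml. Induction ran for 5 days, with 3 libraries in each of the 4 groups WT_Osteo, KO_Osteo, WT_Adipo and KO_Adipo, and nothing states whether the libraries of a group came from separate animals. The libraries held 17496343 to 21099588 fragments on genes, at which 3 fragments on a 1-kilobase gene correspond to 0.143 to 0.185 FPKM.

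CHD7 is an ATP-dependent chromatin remodeler that occupies enhancers, and heterozygous loss of the human gene causes CHARGE syndrome. Marrow MSCs can become osteoblasts, which lay down bone matrix, or adipocytes, and the media favor either fate. The comparison of KO with WT over both media asks which genes depend on genotype whichever fate the medium favors.

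The deleted gene itself differed little in these tables. Chd7 was at 2.64, 2.67 and 2.77 FPKM in WT_Osteo, 2.03, 2.35 and 2.28 in KO_Osteo, 2.26, 1.81 and 2.23 in WT_Adipo, and 2.03, 2.35 and 2.48 in KO_Adipo. The 3 KO_Osteo libraries were below the 3 WT_Osteo libraries, and in adipogenic medium the genotypes overlapped. The log2 difference KO minus WT over both media was -0.06 ± 0.07 (adjusted p = 0.611), and it turned to 0.01 after each library was rescaled to the same sum of FPKM (TPM). A whole-gene FPKM still counts the exons that a Cre deletion leaves, so it checks the deletion only weakly, and KO below means labelled KO. Of the neighbors that start within 2 Mb of Chd7, Rab2a, a GTPase of the secretory pathway, differed by 0.04 ± 0.04 (adjusted p = 0.556) and Asph, a hydroxylase of the endoplasmic reticulum, by 0.10 ± 0.04 (adjusted p = 0.111). Gdf6, a BMP family ligand, rose over both media by 1.26 ± 0.34 (adjusted p = 0.0336), but its differences of 0.15 in osteogenic and 2.36 in adipogenic medium were unequal, with an interaction of 2.20 (adjusted p = 4.62e-05).

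Markers of the labelled cell type were present beside far more abundant macrophage markers. The 11 mesenchymal stromal markers summed to 1224, 1083 and 1142 FPKM in WT_Osteo, 1296, 1187 and 1298 in KO_Osteo, 1629.7, 1360.0 and 1476 in WT_Adipo, and 1492, 1531 and 1520.0 in KO_Adipo. Their most abundant gene was Col1a1, the main collagen of bone, without which every KO sum was above WT, with 551.98 to 581.09 against 496.62 to 506.83 in osteogenic and 601.31 to 625.01 against 540.65 to 557.04 in adipogenic medium. Most of these sums was Itgb1, an integrin chain, at 317 to 381 FPKM in osteogenic and 345 to 412 in adipogenic medium. Members did not move alike. In adipogenic medium Pdgfrb was higher in KO, at 71.9 to 87.1 FPKM against 39.9 to 49.4 in WT. Ly6a was lower, at 18.9 to 22.4 FPKM in KO_Adipo against 31.5 to 46.2 in WT_Adipo, and Cd44 ran from 39.6 to 52.7 against 47.3 to 66.2. Thy1, a classic MSC marker, was at 0.206 to 1.03 FPKM. The 25 macrophage markers, all of them tested, summed to 18424, 18954 and 19004 FPKM in WT_Osteo, 19791, 19468 and 19306 in KO_Osteo, 23452, 13248 and 23147 in WT_Adipo, and 12514, 10955 and 11249 in KO_Adipo. Lyz2, the macrophage lysozyme, led this list at a mean of 8956 FPKM over the 12 libraries. In osteogenic medium the KO macrophage sums were slightly above those of WT, but without Lyz2 they were lower, with 8250.2 to 8542 FPKM in KO_Osteo against 9467.8 to 9769.5 in WT_Osteo. In adipogenic medium all 3 KO sums were below the 3 WT sums, with WT_Adipo 2 near the KO libraries. In these bulk cultures, fewer cells of a type and less RNA per cell cannot be told apart.

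**Figure D1:**
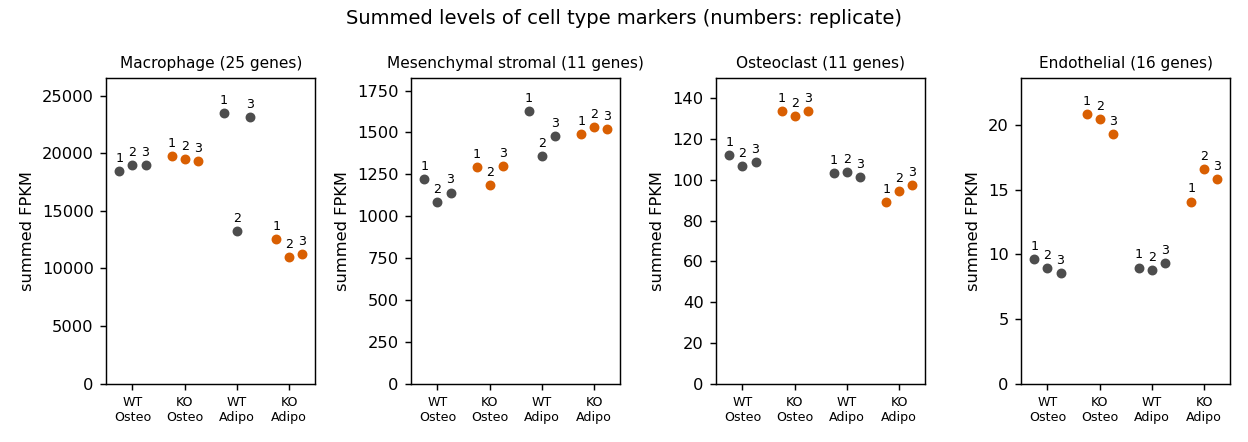
Each point is the summed FPKM of 1 library (vertical axis, from 0) over a list of cell type markers, by group (horizontal axis), with WT in gray, KO in orange and the replicate number above the point. Macrophage sums of WT_Adipo 1 and 3 (23452 and 23147) stand above WT_Adipo 2 (13248), and endothelial sums of KO (14.1 to 20.8) stand above WT (8.58 to 9.63) in both media.

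Among the other cell types, the 11 osteoclast markers found in the table summed to 112, 107 and 109 FPKM in WT_Osteo, 134, 131 and 134 in KO_Osteo, 103, 104 and 102 in WT_Adipo, and 88.9, 94.4 and 97.5 in KO_Adipo, led by Ctsk, a collagen-degrading protease, with Calcr, Dcstamp and Ocstamp under 0.2 FPKM in every library. The 22 lymphoid, granulocyte and erythroid markers summed to 5.12, 5.23 and 6.01 FPKM in WT_Osteo, 5.74, 4.79 and 7.03 in KO_Osteo, 74.9, 3.21 and 94 in WT_Adipo, and 2.75, 1.7 and 2.3 in KO_Adipo. Those sums were high in WT_Adipo 1 and 3, where S100a8, a granulocyte and macrophage protein, led, while 17 of the 22 were under 0.2 FPKM in every library and 8 were at 0 in all. The 11 Schwann cell markers summed to 9.26, 9.09 and 9.77 FPKM in WT_Osteo, 10.05, 9.14 and 8.51 in KO_Osteo, 7.33, 8.92 and 8.01 in WT_Adipo, and 7.37, 8.04 and 7.92 in KO_Adipo, led by the myelin gene Mbp. The 12 skeletal muscle markers summed to 3.21, 3.96 and 4.7 FPKM in WT_Osteo, 7.37, 8.43 and 8.82 in KO_Osteo, 1.85, 6.34 and 1.9 in WT_Adipo, and 3.21, 4.03 and 4.2 in KO_Adipo, led by Acta1, skeletal actin, with 9 of the 12 under 0.2 FPKM throughout.

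Some libraries stood apart before any test. Across genes, WT_Adipo 2 correlated with the other WT_Adipo libraries at r = 0.940 and 0.944 but at 0.986 on average with WT_Osteo and 0.99 with KO_Osteo. KO_Adipo 1 correlated with its group at 0.984 and 0.985, against 0.997 between KO_Adipo 2 and 3. Adgre1, the F4/80 antigen of macrophages, was at 1171, 227 and 1136 FPKM in WT_Adipo, so that library 2 carried the level of the osteogenic cultures, which ran from 183 to 215. Marco, a scavenger receptor, was at 971, 8.98 and 1026 FPKM in WT_Adipo and at 58.0, 1.16 and 1.15 in KO_Adipo, which sets KO_Adipo 1 apart as well. Counts below are therefore also given without WT_Adipo 2, and without WT_Adipo 2 and KO_Adipo 1 together, a choice made after seeing the data.

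Over both media, 949 of the 11110 genes (8.54%) were higher in KO and 643 (5.79%) lower at an adjusted p under 0.05. All 1592 had the same sign in both media, which the additive fit itself favors, since opposite differences enlarge its residual. Within media, 1244 genes (11.2%) passed in osteogenic and 4269 (38.4%) in adipogenic medium. The term shared is used below for genes that passed over both media and in each medium with the same sign. There were 369 of these, 245 higher (2.21%) and 124 lower (1.12%), or 29.7% of the osteogenic and 8.64% of the adipogenic calls. Another 326 genes passed in both media in opposite directions, 164 of them higher in KO in osteogenic medium. Of the 369, 355 had no overlap between KO and WT libraries in either medium, which passing in each medium itself favors. The like share over all genes tested is not given here. Of the 369, 72 changed by at least 1.5-fold over both media. The median absolute log2 difference of the 369 was 0.35 in osteogenic and 0.39 in adipogenic medium.

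**Figure D2:**
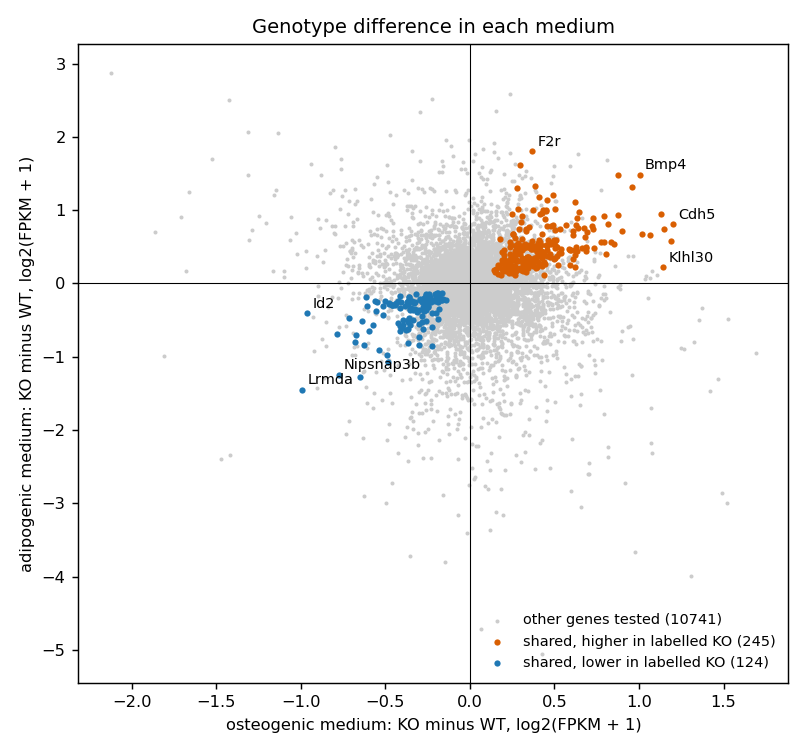
Each point is 1 of the 11110 tested genes, with the log2(FPKM + 1) difference KO minus WT in osteogenic medium on the horizontal axis and in adipogenic medium on the vertical axis. The 245 shared higher genes (orange) fill the upper right and the 124 shared lower genes (blue) the lower left, while many other genes differ in adipogenic medium alone.

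The size of these counts depended on the libraries, while the shared genes kept their direction, which their selection itself favors. Without WT_Adipo 2, 1278 genes were higher and 1311 lower over both media, and the shared genes numbered 584 higher and 508 lower, among them 357 of the 369. Without WT_Adipo 2 and KO_Adipo 1 together, 720 shared genes were higher and 645 lower, with 350 of the 369 among them. Leaving out WT_Adipo 1 gave 1049 genes over both media, WT_Adipo 3 gave 1046, KO_Adipo 2 gave 1023 and KO_Adipo 3 gave 893. The shared genes numbered 209, 176 and 212 without WT_Osteo 1, 2 and 3, and 180, 231 and 173 without KO_Osteo 1, 2 and 3. All 369 kept their call over both media and their sign in each medium whichever library was left out. For the 355 without overlap, leaving out a single library cannot turn the sign, so this adds no support. On the TPM scale 806 genes were higher (77.7% of calls, against 59.6% on the FPKM scale) and 231 lower, and 113 shared genes were higher and 44 lower, with 116 of the 369 among them, while 358 of the 369 had the same sign in each medium and 309 passed over both media. The FPKM sums behind that scale were 349779 and 380097 in WT_Adipo 1 and 3 and 295244 to 318916 in the other 10 libraries, and their part in the loss of calls was not tested. The median difference over all genes tested was -0.01 on the FPKM and 0.06 on the TPM scale.

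Secreted signals and the thrombin receptor were among the largest shared increases. Leading genes, and abundant ones changed at least 1.5-fold, were named only where KO and WT libraries did not overlap in either medium. Their separation, given below for increases and decreases, therefore follows from that choice. Bmp4, a ligand that induces bone, was at 0.76, 0.529 and 0.478 FPKM in WT_Osteo, 2.25, 2.48 and 1.83 in KO_Osteo, 0.947, 1.96 and 1.04 in WT_Adipo, and 3.72, 6.13 and 6.65 in KO_Adipo. Every KO library was above every WT library of its medium, with WT_Adipo 2 the highest WT value. Bmp4 rose by 1.24 ± 0.15 (adjusted p = 0.000984), or 1.00 (adjusted p = 0.00997) in osteogenic and 1.48 (adjusted p = 0.00034) in adipogenic medium. Edn1, the vasoconstrictor endothelin 1, was at 2.22, 3.17 and 2.3 FPKM in WT_Osteo, 5.05, 5.71 and 5.72 in KO_Osteo, 2.25, 2.59 and 1.39 in WT_Adipo, and 6.62, 8.23 and 7.6 in KO_Adipo. Its genotypes were again apart in both media, and Edn1 rose by 1.18 ± 0.14 (adjusted p = 0.000754). F2r, the thrombin receptor PAR1, was at 4.71, 4.89 and 5.22 FPKM in WT_Osteo, 6.82, 6.45 and 6.7 in KO_Osteo, 5.53, 4.64 and 5.03 in WT_Adipo, and 18.4, 21.3 and 20.9 in KO_Adipo. The KO libraries were modestly higher in osteogenic medium and far above WT in adipogenic medium, so that F2r rose by 1.09 ± 0.22 (adjusted p = 0.00992) with an interaction of 1.44 (adjusted p = 1.06e-05). Pgf, the placental growth factor of the VEGF family, showed the same inequality, with means of 2.72 ± 0.384 against 2.02 ± 0.134 FPKM in osteogenic and 6.46 ± 0.163 against 1.45 ± 0.211 in adipogenic medium (mean ± SD, n = 3) and an interaction of 1.31 (adjusted p = 5.37e-05).

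Other leading increases were in low-abundance and macrophage-associated genes. Sytl1, a synaptotagmin-like vesicle protein, was at 0.175, 0.213 and 0.202 FPKM in WT_Osteo, 1.66, 1.19 and 1.16 in KO_Osteo, 0.0483, 0.285 and 0.172 in WT_Adipo, and 1.42, 2.13 and 2.19 in KO_Adipo. Bex1, a small adaptor known from neurons, was at 0.279, 0.802 and 0.429 FPKM in WT_Osteo, 1.5, 3.12 and 2.36 in KO_Osteo, 0.0513, 0.524 and 0.052 in WT_Adipo, and 1.08, 1.48 and 1.38 in KO_Adipo. WT values of both were near 0, with as few as 2 fragments for Sytl1 and 1 for Bex1, so their fold changes are imprecise, but no KO library reached down to WT. They rose by 1.13 ± 0.10 (adjusted p = 0.000252) and 1.04 ± 0.14 (adjusted p = 0.00153). Both passed the low-value filter through KO libraries alone, since no WT value reached 1 FPKM. Wfdc17, a small secreted protein of activated macrophages, was at 187, 232 and 206 FPKM in WT_Osteo, 447, 487 and 452 in KO_Osteo, 175, 108 and 172 in WT_Adipo, and 266, 245 and 235 in KO_Adipo. Vsig4, a complement receptor of tissue macrophages, was at 1.75, 2.65 and 1.75 FPKM in WT_Osteo, 3.9, 4.25 and 5.62 in KO_Osteo, 0.779, 0.773 and 0.499 in WT_Adipo, and 2.22, 2.36 and 2.06 in KO_Adipo. Both were apart by genotype in both media and rose by 0.95 ± 0.13 (adjusted p = 0.00139) and 0.91 ± 0.09 (adjusted p = 0.000414), against the direction of several other macrophage genes given below. Reads of Wfdc17 could come in part from close relatives, which the table cannot separate. Mcam, the adhesion molecule CD146 of perivascular stroma, rose by 0.86 ± 0.11 (adjusted p = 0.00103), from means of 2.71 against 1.42 FPKM in osteogenic and 3.86 against 1.26 in adipogenic medium.

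**Figure D3:**
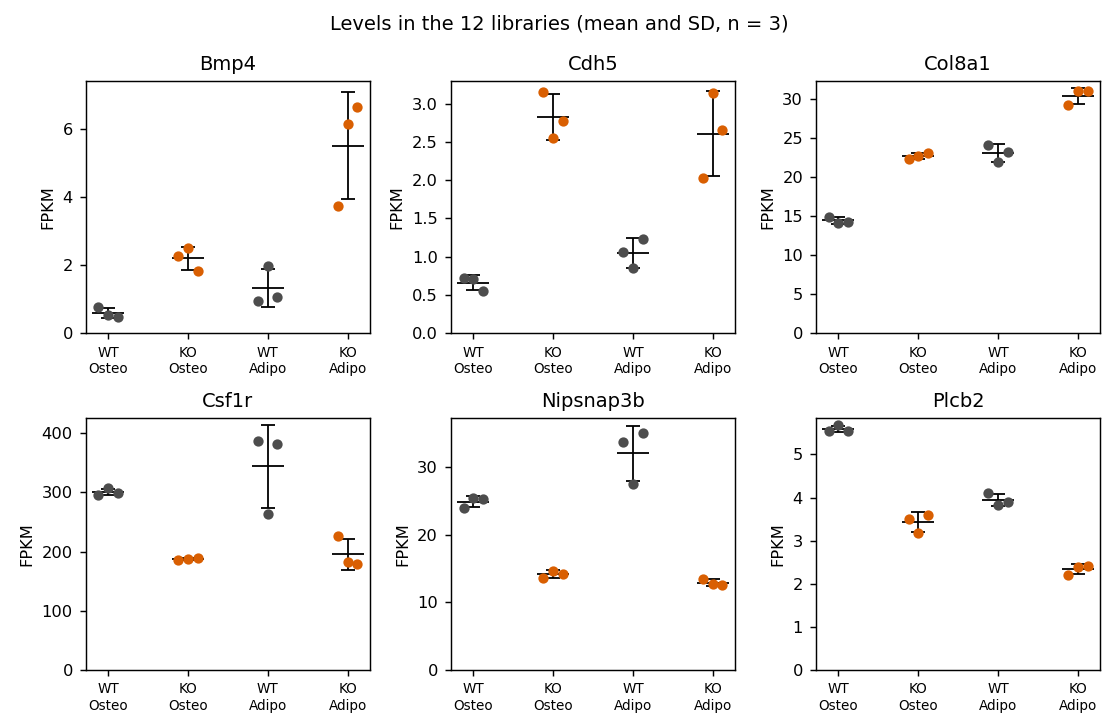
Points are FPKM values of single libraries (vertical axis, from 0) in the 4 groups (horizontal axis), with the mean and SD (n = 3) in black, WT in gray and KO in orange. Bmp4, Cdh5 and Col8a1 lie higher in KO and Csf1r, Nipsnap3b and Plcb2 lower in KO in both media, with no overlap within a medium.

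Part of the actin-based contractile program was higher in KO in both media. Of 20 tested smooth muscle contractile genes, 13 rose over both media and none fell, where 8.54% of all genes tested rose and 5.79% fell. Of the 20, 8 were shared, or 40.0% against 2.21% of all genes tested, with a list median of 0.49 against -0.01. Acta2, smooth muscle actin, was at 719.9, 761 and 728 FPKM in WT_Osteo, 993, 949.5 and 995 in KO_Osteo, 848, 1159 and 829.8 in WT_Adipo, and 1309, 1437 and 1494 in KO_Adipo. KO libraries were above WT in both media, and WT_Adipo 2, at 1159, was closest to KO. Acta2 rose by 0.50 ± 0.08 (adjusted p = 0.00379). Myl9, the regulatory light chain of myosin, was at 152, 152 and 151 FPKM in WT_Osteo, 231, 216 and 230.1 in KO_Osteo, 161, 242 and 151 in WT_Adipo, and 289, 312 and 343 in KO_Adipo. Its genotypes did not overlap, and Myl9 rose by 0.68 ± 0.10 (adjusted p = 0.00265). Cald1, an actin-binding regulator of contraction, rose by 0.41 ± 0.04 (adjusted p = 0.000306) from means of 74.6 against 56.3 FPKM in osteogenic and 89.7 against 66.5 in adipogenic medium, an increase of similar size in both media. Tpm1, a tropomyosin that lies along actin filaments, rose by 0.52 ± 0.07 (adjusted p = 0.00194), Cnn2, a calponin, by 0.48 ± 0.07 (adjusted p = 0.00198) and Actn1, which crosslinks actin, by 0.33 ± 0.05 (adjusted p = 0.00252). Cnn1 and Actg2, markers of mature smooth muscle, completed the 8, and Tagln, Myh11, Tpm2, Lmod1 and Mylk rose over both media without passing in each. On the TPM scale no member was shared, with a list median of 0.56, while 11 members were shared without WT_Adipo 2 and 12 without KO_Adipo 1 as well. Beside this rise, stromal sums without Col1a1 were higher and macrophage sums without Lyz2 lower in every KO library of both media. Those stromal sums were mostly Itgb1, and other stromal markers such as Ly6a were lower in KO_Adipo. The part of either cell type in the rise was not tested.

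Genes of focal adhesions and actin linkers were also among the shared increases. In a list of these, chosen after the values were seen, 24 of 38 rose over both media and 2 fell, and 17 were shared higher and 1 lower, with a median of 0.33. Choosing it so raises its shares over those of all genes tested, of which 8.54% rose, 5.79% fell, 2.21% were shared higher and 1.12% shared lower. Actn1 is counted here as well. Csrp2, a LIM protein of muscle differentiation, was at 12.8, 14.3 and 13.1 FPKM in WT_Osteo, 26.2, 22.5 and 24.5 in KO_Osteo, 17.7, 22.4 and 15.6 in WT_Adipo, and 27.9, 37.1 and 35 in KO_Adipo. All KO libraries were above the WT libraries of their medium, and Csrp2 rose by 0.82 ± 0.09 (adjusted p = 0.00051). Fscn1, the actin-bundling protein fascin, rose by 0.62 ± 0.07 (adjusted p = 0.000857), Tgfb1i1, the focal adhesion adaptor HIC-5, by 0.41 ± 0.04 (adjusted p = 0.000437) and Afap1, an actin filament adaptor, by 0.35 ± 0.04 (adjusted p = 0.000832). Parva, Bcar1, Cttn, Palld, Pdlim1, Nexn, Lima1, Nedd9, Rnd3, Limk2, Dstn and Cnn3 were also shared higher, and Fblim1, a filamin-binding linker, was the shared lower member. Cfl1, the actin-severing cofilin and the most abundant member, did not pass at -0.09 ± 0.06 (adjusted p = 0.386). On the TPM scale 3 members were shared higher and none lower, and Cfl1 changed sign to 0.00. Without WT_Adipo 2, 20 were shared higher and 1 lower.

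Genes of the Hippo pathway, which reads tension on the actin cytoskeleton, were partly in the same set. In this list, also chosen after the values were seen, 14 of 28 rose over both media, 1 fell and 6 were shared, all higher, with a median of 0.26. Choosing it so raises the count of rising genes, where 8.54% of all genes tested rose, 5.79% fell and 2.21% were shared higher. The 6 were Yap1 and Wwtr1, the transcriptional effectors YAP and TAZ, the kinase Lats2 and the scaffold genes Amotl1, Amotl2 and Ajuba. Amotl2, an angiomotin that binds YAP, was at 22, 21.9 and 21.6 FPKM in WT_Osteo, 28.3, 27.7 and 29.4 in KO_Osteo, 31.6, 29.4 and 31.9 in WT_Adipo, and 40.1, 44.5 and 45.4 in KO_Adipo. The genotypes were apart by more than the spread within each group, and Amotl2 rose by 0.42 ± 0.04 (adjusted p = 0.000324). Ajuba rose by 0.49 ± 0.05 (adjusted p = 0.000402), Amotl1 by 0.43 ± 0.05 (adjusted p = 0.000654) and Lats2 by 0.34 ± 0.05 (adjusted p = 0.00153). Mob1a, a LATS kinase activator and the most abundant member, did not pass at -0.12 ± 0.05 (adjusted p = 0.105). On the TPM scale 3 were shared, without WT_Adipo 2 11 higher and 2 lower.

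Some of these genes hold the CArG box, the sequence bound by serum response factor, close to their start. Among all 32851 promoter windows of the RefSeq table (GRCm38.p6, 250 bases before to 50 after the start), 1.63% hold it on either strand. By gene, the share was 1.56% of the 8828 tested genes with a window, 8 of 187 shared higher genes (4.28%) and 1 of 100 shared lower genes (1.0%). Of 16 smooth muscle contractile genes with a window, 5 hold it: Cnn2 and Myl9, which were shared, and Myl6, Srf and Ldb3, which did not pass over both media. The windows of Cnn2 (chr10:79988350-79988649, plus strand), Myl9 (chr2:156775214-156775513, plus strand) and Lima1 (chr15:99820100-99820399, minus strand) are shown, 5′ to 3′ with the CArG box in capitals, as examples picked after the values were seen from the contractile and actin linker genes.
Cnn2: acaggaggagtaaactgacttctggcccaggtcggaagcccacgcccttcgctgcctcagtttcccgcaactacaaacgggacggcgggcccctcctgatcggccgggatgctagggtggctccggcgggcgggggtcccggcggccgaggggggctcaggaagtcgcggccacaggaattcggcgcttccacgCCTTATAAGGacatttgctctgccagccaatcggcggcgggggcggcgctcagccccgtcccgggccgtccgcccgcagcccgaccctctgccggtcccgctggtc
Myl9: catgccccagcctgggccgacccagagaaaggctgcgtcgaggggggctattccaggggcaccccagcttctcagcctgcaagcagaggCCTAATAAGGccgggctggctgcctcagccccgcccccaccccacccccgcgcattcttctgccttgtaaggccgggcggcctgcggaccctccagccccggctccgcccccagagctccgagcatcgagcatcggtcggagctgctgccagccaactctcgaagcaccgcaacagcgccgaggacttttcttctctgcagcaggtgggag
Lima1: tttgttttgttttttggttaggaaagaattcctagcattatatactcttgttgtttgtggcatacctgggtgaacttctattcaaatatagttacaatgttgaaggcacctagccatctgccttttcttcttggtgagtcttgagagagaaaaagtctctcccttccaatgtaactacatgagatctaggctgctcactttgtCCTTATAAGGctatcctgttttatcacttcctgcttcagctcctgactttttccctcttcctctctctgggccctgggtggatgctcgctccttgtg
A match is a description of the letters in the window, not a test of binding.

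Some collagens were higher in KO in both media. Of 22 tested fibrillar and network collagens, 9 rose over both media, 13 did not pass and 7 were shared (8.54% higher and 2.21% shared higher over all genes tested), with a median of 0.26. Col8a1, a short-chain collagen of vessel walls, was at 14.9, 14.1 and 14.3 FPKM in WT_Osteo, 22.3, 22.7 and 23.1 in KO_Osteo, 24.1, 21.9 and 23.2 in WT_Adipo, and 29.2, 31 and 31 in KO_Adipo. Replicates were tight and the genotypes apart, and Col8a1 rose by 0.50 ± 0.05 (adjusted p = 0.000306). Col4a1, a chain of basement membrane collagen, was at 76.9, 69.1 and 70.1 FPKM in WT_Osteo, 92.5, 83.6 and 88 in KO_Osteo, 90.5, 91.3 and 84.1 in WT_Adipo, and 167, 187 and 184 in KO_Adipo. It rose in both media, but more in adipogenic medium, with 0.65 ± 0.12 (adjusted p = 0.00587) over both and an interaction of 0.72 (adjusted p = 0.00039). Col5a2, a regulator of fibril diameter, rose by 0.42 ± 0.05 (adjusted p = 0.000754), and Col4a2 and Col10a1 were the other shared members. The cartilage collagens Col2a1 and Col11a1 rose by 0.84 ± 0.11 (adjusted p = 0.00144) and 0.85 ± 0.13 (adjusted p = 0.00264) at low levels, from WT means of 0.975 and 3.88 FPKM in osteogenic medium, and were the 2 shared genes of 6 tested cartilage genes, of which 2 rose and 1, the lubricin gene Prg4, fell over both media. Col1a1, the most abundant collagen, did not pass at 0.02 ± 0.08 (adjusted p = 0.883), and its sign was negative without WT_Osteo 2, KO_Osteo 1 or WT_Adipo 2. On the TPM scale 2 collagens were shared, and without WT_Adipo 2 the count was 8 higher and 3 lower.

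Some bone matrix proteins and matrix regulators were shared as well. Of 20 bone matrix and mineralization genes, 7 rose over both media, 1 fell and 3 were shared (8.54%, 5.79% and 3.32% of all genes tested), with a median of 0.35. Bglap, among the 7 that rose, passed the low-value filter through KO_Adipo alone. Spp1, osteopontin, was at 1375, 1261 and 1499.8 FPKM in WT_Osteo, 2099, 2075 and 2218 in KO_Osteo, 839.6, 868 and 870.4 in WT_Adipo, and 1204, 1059.7 and 1235 in KO_Adipo. No KO library fell into the WT range of its medium, and Spp1 rose by 0.53 ± 0.06 (adjusted p = 0.000771). Bgn, the proteoglycan biglycan, was at 222, 214 and 225 FPKM in WT_Osteo, 285, 272 and 295 in KO_Osteo, 178, 181 and 174 in WT_Adipo, and 246, 244 and 246 in KO_Adipo. The gap between genotypes exceeded the range within groups, and Bgn rose by 0.41 ± 0.04 (adjusted p = 0.000252). Tnfrsf11b, osteoprotegerin, the decoy that blocks RANKL, rose by 0.60 ± 0.09 (adjusted p = 0.0024) from means of 6.31 against 3.19 FPKM in osteogenic and 6.1 against 4.43 in adipogenic medium. With Spp1 it was also a shared member of the 13 tested niche and osteoclast-support factors, 6 of which rose over both media and none of which fell.

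Thbs1, the matricellular protein thrombospondin 1, was at 498, 473 and 479 FPKM in WT_Osteo, 796, 782 and 835 in KO_Osteo, 472, 546 and 479.6 in WT_Adipo, and 575, 776 and 763 in KO_Adipo. KO libraries were above WT in each medium, closest between KO_Adipo 1 and WT_Adipo 2, and Thbs1 rose by 0.61 ± 0.08 (adjusted p = 0.00149). The elastic fiber genes Fbln5 and Mfap5 rose by 0.47 ± 0.06 (adjusted p = 0.000984) and 0.45 ± 0.06 (adjusted p = 0.00104), making 3 shared of 20 proteoglycan, hyaluronan and elastic fiber genes, of which 7 rose over both media and none fell (3.32% shared, 8.54% higher and 5.79% lower over all genes tested). Among 24 genes of collagen processing, 8 rose over both media, 1 fell and 2 were shared: Pcolce, which enhances procollagen cleavage, at 0.33 ± 0.05 (adjusted p = 0.00162) and P3h4, of the collagen hydroxylation machinery, at 0.37 ± 0.06 (adjusted p = 0.00398). Lox, the collagen crosslinker and most abundant of them, rose over both media by 0.33 ± 0.08 (adjusted p = 0.017) but did not pass in osteogenic medium. Among 20 matrix proteases and inhibitors, 3 rose over both media and 1 fell, not far from those shares, and Adamts12 and Mmp17 were shared at 0.69 ± 0.10 (adjusted p = 0.00201) and 0.37 ± 0.06 (adjusted p = 0.00405). The inhibitor Timp1, the most abundant of that list, did not pass at -0.04 ± 0.14 (adjusted p = 0.867), with its sign reversed on the TPM scale (0.05).

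Some adhesion receptors and basement membrane genes were shared higher. Of 25 integrin and cell adhesion genes, 10 rose over both media, 1 fell and 4 were shared (8.54%, 5.79% and 3.32% of all genes tested), with a median of 0.21. Itgb1, the common beta chain of collagen and laminin receptors, was at 319, 317 and 318 FPKM in WT_Osteo, 360.4, 372 and 381 in KO_Osteo, 345, 367 and 347 in WT_Adipo, and 392, 412 and 412 in KO_Adipo. The increase was small, 0.21 ± 0.03 (adjusted p = 0.00364), but every KO library exceeded every WT library of its medium. The laminin chains Lamb1 and Lama5 rose by 0.37 ± 0.04 (adjusted p = 0.00051) and 0.51 ± 0.09 (adjusted p = 0.00435), and Nid1, which links laminin to collagen, by 0.43 ± 0.08 (adjusted p = 0.00517). Fn1, fibronectin, rose over both media by 0.28 ± 0.06 (adjusted p = 0.012) and missed the call in adipogenic medium (adjusted p = 0.0639). Of 14 MSC surface markers, 5 rose over both media, none fell and Itgb1, Mcam and Ngfr were shared. Ngfr reached 1 FPKM in KO libraries alone, through which it passed the low-value filter. No adhesion gene of the list of 25 was shared on the TPM scale.

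The summed endothelial markers were higher in KO, at low levels. The 16 markers summed to 9.63, 8.97 and 8.58 FPKM in WT_Osteo, 20.8, 20.5 and 19.3 in KO_Osteo, 8.98, 8.82 and 9.33 in WT_Adipo, and 14.1, 16.6 and 15.8 in KO_Adipo. KO sums were above all WT sums in both media, and the most abundant gene was Vwf at a mean of 3.06 FPKM, while Cldn5 and Sox17 were under 0.2 in every library. Of the 6 members that could be tested, 3 rose over both media and were shared and 3 did not pass, with a median of 0.59. Over all genes tested, 8.54% were higher and 2.21% shared higher. The 3 that rose stayed shared on the TPM scale and without WT_Adipo 2. The low-value filter tilts the share of members that rose toward KO, since Emcn reached 1 FPKM in no WT library and Cdh5 in 2. Cdh5, VE-cadherin of endothelial junctions, was at 0.722, 0.708 and 0.552 FPKM in WT_Osteo, 3.15, 2.55 and 2.77 in KO_Osteo, 1.06, 0.853 and 1.23 in WT_Adipo, and 2.03, 3.14 and 2.65 in KO_Adipo. Emcn, endomucin of capillary and sinusoid endothelium, was at 0.367, 0.583 and 0.345 FPKM in WT_Osteo, 1.88, 2.1 and 1.98 in KO_Osteo, 0.63, 0.548 and 0.765 in WT_Adipo, and 1.52, 1.61 and 1.66 in KO_Adipo. Plvap, which forms diaphragms in fenestrated vessels, was at 1.58, 1.17 and 1.05 FPKM in WT_Osteo, 4.15, 4.53 and 3.76 in KO_Osteo, 1.53, 0.962 and 1.68 in WT_Adipo, and 2.63, 2.51 and 2.44 in KO_Adipo. All 3 were apart by genotype in both media and rose by 1.01 ± 0.10 (adjusted p = 0.000313), 0.86 ± 0.08 (adjusted p = 0.000306) and 0.88 ± 0.12 (adjusted p = 0.00177), with a larger difference in osteogenic medium for Emcn and Plvap (interactions of -0.41 (adjusted p = 0.023) and -0.61 (adjusted p = 0.0261)). Vwf, a clotting factor carrier, did not pass at 0.29 ± 0.13 (adjusted p = 0.139). Some values went the other way: Pecam1, the adhesion molecule CD31, was at 0.79 to 0.85 FPKM in KO_Adipo with 1.33 and 1.35 in WT_Adipo 1 and 3, and Kdr, the receptor VEGFR2, was at 0.85 to 0.98 in KO_Osteo and 0.91 to 1.30 in WT_Osteo. The part of endothelial RNA in the shared increases was not tested.

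Growth factor and guidance pathways held 0 to 4 shared members each, in shares from 0 to 20% of a list where all genes tested gave 3.32%. Over both media, 8.54% of all genes tested were higher and 5.79% lower. Of 24 BMP pathway genes, 6 rose over both media and 1 fell, and shared were Bmp4, the receptor Bmpr1a (0.24 ± 0.04 (adjusted p = 0.00662)) and Id2, an inhibitor of helix-loop-helix factors and BMP target, which fell. Id2 was at 86.9, 87.7 and 89.3 FPKM in WT_Osteo, 41.9, 47.8 and 44.3 in KO_Osteo, 77.2, 67.8 and 80.3 in WT_Adipo, and 66.3, 50.3 and 53.2 in KO_Adipo. All KO libraries were below the WT libraries of their medium, by more in osteogenic medium, and the difference over both media was -0.69 ± 0.11 (adjusted p = 0.00292) with an interaction of 0.56 (adjusted p = 0.0166). Grem1, a BMP antagonist and the most abundant member, did not pass over both media at -0.57 ± 0.22 (adjusted p = 0.0988). Of 25 TGF-beta and activin genes, 7 rose over both media and none fell, and Pmepa1, a TGF-beta target that feeds back on SMADs, rose by 0.49 ± 0.04 (adjusted p = 0.000288) and Thbs1 was the other shared gene.

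Of 13 FGF pathway genes, 4 rose over both media, 1 fell and 2 were shared. For this list and those that follow, all genes tested gave 8.54% higher, 5.79% lower and 3.32% shared. Fgf2, a ligand that keeps stromal cells proliferating, was at 2.25, 2.21 and 2.1 FPKM in WT_Osteo, 4.29, 4.97 and 4.3 in KO_Osteo, 0.718, 1.9 and 0.883 in WT_Adipo, and 2.67, 3.13 and 3.18 in KO_Adipo. KO exceeded WT in both media despite the high WT_Adipo 2, and Fgf2 rose by 0.85 ± 0.11 (adjusted p = 0.00129). Spry1, a feedback inhibitor of the same pathway, rose by 0.72 ± 0.11 (adjusted p = 0.00225). Of 27 genes of PDGF, VEGF, EGF and HGF signaling and related receptors, 8 rose over both media, none fell and 4 were shared: Pgf, Hbegf, an EGF family ligand (0.43 ± 0.06 (adjusted p = 0.00129)), Flt4, the receptor VEGFR3 (0.44 ± 0.07 (adjusted p = 0.0027)), and Ngfr, the neurotrophin receptor CD271 that marks human MSCs (0.66 ± 0.06 (adjusted p = 0.000306)). As said above, Ngfr passed the low-value filter through KO libraries alone. Of 26 Wnt genes, 9 rose over both media and none fell, with the receptors Ryk (0.34 ± 0.03 (adjusted p = 0.000306)) and Fzd2 (0.33 ± 0.06 (adjusted p = 0.00461)) shared. Of 8 Hedgehog genes, 3 rose, none fell and the coreceptor Boc (0.35 ± 0.06 (adjusted p = 0.00401)) was shared. Of 10 retinoic acid genes, 3 rose, none fell, and the receptor Rarg (0.31 ± 0.05 (adjusted p = 0.00329)) and Rarres1, a retinoid-responsive gene (0.34 ± 0.07 (adjusted p = 0.0133)), were shared. Of 29 axon guidance genes, 6 rose, 1 fell and the ephrin receptor Ephb3 (0.34 ± 0.07 (adjusted p = 0.00784)) was shared. Of 17 insulin and IGF genes, 6 rose, none fell and 0 were shared.

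Some cell cycle inhibitors and p53 targets were higher in both media. Of 14 senescence-associated genes, 5 rose over both media, none fell and 2 were shared (8.54%, 5.79% and 3.32% of all genes tested), both from the Ink4 locus. Cdkn2b, the inhibitor p15, was at 14, 10.9 and 13.4 FPKM in WT_Osteo, 21.4, 22.1 and 21.6 in KO_Osteo, 14.4, 21.6 and 15.3 in WT_Adipo, and 31.1, 33.5 and 32.2 in KO_Adipo. Its KO libraries exceeded WT in both media, and it rose by 0.81 ± 0.09 (adjusted p = 0.000699). Cdkn2a, which encodes p16 and ARF, was at 28, 26.8 and 29.8 FPKM in WT_Osteo, 40.7, 38 and 39.7 in KO_Osteo, 29.6, 40.9 and 28.9 in WT_Adipo, and 38.6, 45.2 and 44 in KO_Adipo. It rose by 0.42 ± 0.08 (adjusted p = 0.00806), although in adipogenic medium WT_Adipo 2 lay above KO_Adipo 1. Of 26 p53 targets, 9 rose over both media, 17 did not pass and 3 were shared, with medians of 0.06 in osteogenic and 0.58 in adipogenic medium. Phlda3, an inhibitor of AKT, was at 68.5, 62.1 and 63.9 FPKM in WT_Osteo, 88.1, 85.9 and 84.6 in KO_Osteo, 54.2, 76.2 and 56.3 in WT_Adipo, and 132, 143 and 148 in KO_Adipo. The genotypes were apart in both media and the increase was larger in adipogenic medium, with 0.79 ± 0.14 (adjusted p = 0.00476) over both and an interaction of 0.77 (adjusted p = 0.00526). Sesn2, a stress-induced inhibitor of mTORC1 signaling, rose by 0.30 ± 0.04 (adjusted p = 0.00107) with little spread, and Perp, a desmosomal p53 target, by 0.81 ± 0.10 (adjusted p = 0.00101) from as few as 1 fragment in WT. Perp reached 1 FPKM in KO_Adipo alone, through which it passed the low-value filter. Ccng1, cyclin G1 and the most abundant target, rose over both media by 0.48 ± 0.12 (adjusted p = 0.0234) but did not pass in osteogenic medium. On the TPM scale 1 p53 target and 1 senescence gene were shared. Ccnd2, cyclin D2, was the shared gene of 40 replication and mitosis genes, 2 of which rose over both media, and its difference was 0.27 ± 0.05 (adjusted p = 0.00507). Their list medians were opposite, 0.25 in osteogenic and -0.45 in adipogenic medium, where WT_Adipo 2 stood at 0.49 and WT_Adipo 1 and 3 at -0.24, and the median over both media turned from -0.10 to 0.06 without WT_Adipo 2.

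Some osteoblast transcription factors and 1 chromatin remodeler were shared. Of 15 osteoblast transcription factors, 8 rose over both media, none fell and 2 were shared (8.54%, 5.79% and 3.32% of all genes tested), with a median of 0.29. Prrx1, the limb mesenchyme factor whose enhancer drives the Cre, was at 14.3, 14.1 and 14.4 FPKM in WT_Osteo, 16.5, 16.2 and 17 in KO_Osteo, 16.1, 15.8 and 16.7 in WT_Adipo, and 19.96, 22.6 and 21.9 in KO_Adipo. KO libraries were above WT in both media, and Prrx1 rose by 0.29 ± 0.05 (adjusted p = 0.00265). No gene of the list was shared on the TPM scale. Atf4, the most abundant of the list, was at -0.03 ± 0.06 (adjusted p = 0.771) and turned positive on the TPM scale (0.06). Chd3, another remodeler of the CHD family, was the shared member of 20 chromatin remodelers, of which 1 rose and 1 fell over both media (5.0% each, against 8.54% and 5.79% of all genes tested). It was at 18.5, 18.1 and 17.7 FPKM in WT_Osteo, 22.7, 21.1 and 22.3 in KO_Osteo, 20.3, 21 and 20.5 in WT_Adipo, and 25.6, 29.2 and 30.5 in KO_Adipo and rose by 0.36 ± 0.05 (adjusted p = 0.00162), with no overlap of genotypes. Chd4, the most abundant remodeler, did not pass at -0.10 ± 0.06 (adjusted p = 0.284). The list median of -0.07 turned to 0.00 on the TPM scale.

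Genes of blood-lineage signaling were among the shared decreases. In a list of 45 tested hematopoietic signaling adaptors and kinases, chosen after the values were seen, 28 fell over both media, none rose and 20 were shared lower, with a median of -0.45. Choosing it so raises its shares over those of all genes tested, of which 5.79% fell, 8.54% rose and 1.12% were shared lower. Vsig4, Alox5, Il18rap, Cxcr6 and C1qa, blood-lineage genes outside the list, were shared higher. Plcb2, a phospholipase downstream of chemokine receptors, was at 5.54, 5.68 and 5.55 FPKM in WT_Osteo, 3.51, 3.17 and 3.6 in KO_Osteo, 4.1, 3.83 and 3.9 in WT_Adipo, and 2.21, 2.39 and 2.42 in KO_Adipo. Its KO libraries were below WT by a like amount in both media, -0.57 ± 0.04 (adjusted p = 9.47e-05), the lowest p of all genes tested. Alox5ap, which hands arachidonic acid to 5-lipoxygenase, was at 117, 117 and 121 FPKM in WT_Osteo, 92.1, 93.5 and 88.9 in KO_Osteo, 115, 98.5 and 106 in WT_Adipo, and 67.7, 68.6 and 70.3 in KO_Adipo. Was, the actin regulator mutated in Wiskott-Aldrich syndrome, was at 29, 31.5 and 31.3 FPKM in WT_Osteo, 23.7, 22.8 and 22.6 in KO_Osteo, 33.6, 28.3 and 33.8 in WT_Adipo, and 23.6, 21.6 and 21.7 in KO_Adipo. Both were apart by genotype and differed by -0.49 ± 0.05 (adjusted p = 0.00051) and -0.45 ± 0.05 (adjusted p = 0.000754). Arhgap9, a GTPase regulator of blood cells, differed by -0.27 ± 0.03 (adjusted p = 0.00035) and missed the call on the TPM scale (adjusted p = 0.0651). Mpeg1, the pore-forming perforin-2 and most abundant of the list, was at 699, 712 and 703 FPKM in WT_Osteo, 549, 580.2 and 547 in KO_Osteo, 605, 469.9 and 574 in WT_Adipo, and 423, 376 and 360.0 in KO_Adipo. It differed by -0.42 ± 0.07 (adjusted p = 0.00366) with no overlap. Btk, Pik3cd, Fes, Ptk2b, Nckap1l, Apbb1ip, Elmo1, Fmnl1, Myo1g, Fli1, Irf5, Lair1 and Nfam1 were among the other shared lower members. The list held 8 shared lower genes on the TPM scale and 28 without WT_Adipo 2.

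Csf1r was lower as well, while the whole macrophage list was not uniformly so. Csf1r, the receptor that keeps macrophages alive, was at 296, 307 and 299 FPKM in WT_Osteo, 186, 187 and 188 in KO_Osteo, 386, 263 and 383 in WT_Adipo, and 226, 182 and 178 in KO_Adipo. The KO libraries were below WT in both media, and Csf1r differed by -0.74 ± 0.10 (adjusted p = 0.00127). Csf2rb2, a receptor chain for interleukin 3 and a member of the list above, was at 27.2, 29.5 and 27.7 FPKM in WT_Osteo, 17.4, 18.3 and 19 in KO_Osteo, 28.1, 23.8 and 26.9 in WT_Adipo, and 21.5, 14.1 and 14.2 in KO_Adipo. It differed by -0.63 ± 0.09 (adjusted p = 0.0021), and part of its reads could belong to the near-identical Csf2rb. Of the 25 macrophage markers, 1 rose and 4 fell over both media (8.54% and 5.79% of all genes tested), with a median of -0.30. C1qa, a chain of complement C1q, rose by 0.55 ± 0.07 (adjusted p = 0.00149) and Laptm5, a lysosomal protein of blood cells, fell, at -0.24 ± 0.05 (adjusted p = 0.0119), with overlapping genotypes in adipogenic medium and no call on the TPM scale (adjusted p = 0.342). Lyz2 did not pass over both media at -0.50 ± 0.31 (adjusted p = 0.297), and neither did C1qb at 0.01 ± 0.12 (adjusted p = 0.976). Beside these decreases, the macrophage sums without Lyz2 were lower in every KO library than in any WT library of the same medium, and the list medians were -0.15 in osteogenic and -0.42 in adipogenic medium. The part of macrophage RNA in the decreases was not tested.

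Several shared lower genes carry the letters GAGGAAGT near their start, a core that the macrophage factor PU.1 is known to bind. Of all promoter windows 3.20% hold these letters on either strand, as do 3.92% of the tested genes, 7 of 187 shared higher genes (3.74%) and 9 of 100 shared lower genes (9.0%). In the hematopoietic list 9 of 34 genes with a window hold them. Spi1, which encodes PU.1, did not pass over both media (log2 difference -0.52, adjusted p = 0.0839). The windows of Csf2rb2 (chr15:78305672-78305971, minus strand), Cd37 (chr7:45238790-45239089, minus strand) and Pld4 (chr12:112760405-112760704, plus strand) are shown with these letters or their reverse complement in capitals, chosen after the values were seen as a receptor, a tetraspanin of blood cells and an endolysosomal nuclease.
Csf2rb2: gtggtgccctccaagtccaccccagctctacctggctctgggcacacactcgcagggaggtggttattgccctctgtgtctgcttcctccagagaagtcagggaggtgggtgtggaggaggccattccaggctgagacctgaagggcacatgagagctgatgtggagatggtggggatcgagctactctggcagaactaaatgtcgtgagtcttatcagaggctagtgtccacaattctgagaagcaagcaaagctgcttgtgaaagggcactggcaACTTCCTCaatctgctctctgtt
Cd37: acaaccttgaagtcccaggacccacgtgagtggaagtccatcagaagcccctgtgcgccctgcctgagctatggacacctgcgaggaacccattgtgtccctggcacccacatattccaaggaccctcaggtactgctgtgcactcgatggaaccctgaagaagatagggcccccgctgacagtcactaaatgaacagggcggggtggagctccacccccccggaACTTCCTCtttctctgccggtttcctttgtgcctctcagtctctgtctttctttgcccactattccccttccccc
Pld4: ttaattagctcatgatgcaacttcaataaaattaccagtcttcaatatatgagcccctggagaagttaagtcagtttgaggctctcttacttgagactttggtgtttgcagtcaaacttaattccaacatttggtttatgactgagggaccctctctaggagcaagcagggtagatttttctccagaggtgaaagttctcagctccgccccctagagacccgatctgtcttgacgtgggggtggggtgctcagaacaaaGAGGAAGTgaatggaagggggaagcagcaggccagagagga
As above, the match describes the window and tests no binding.

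**Figure D4:**
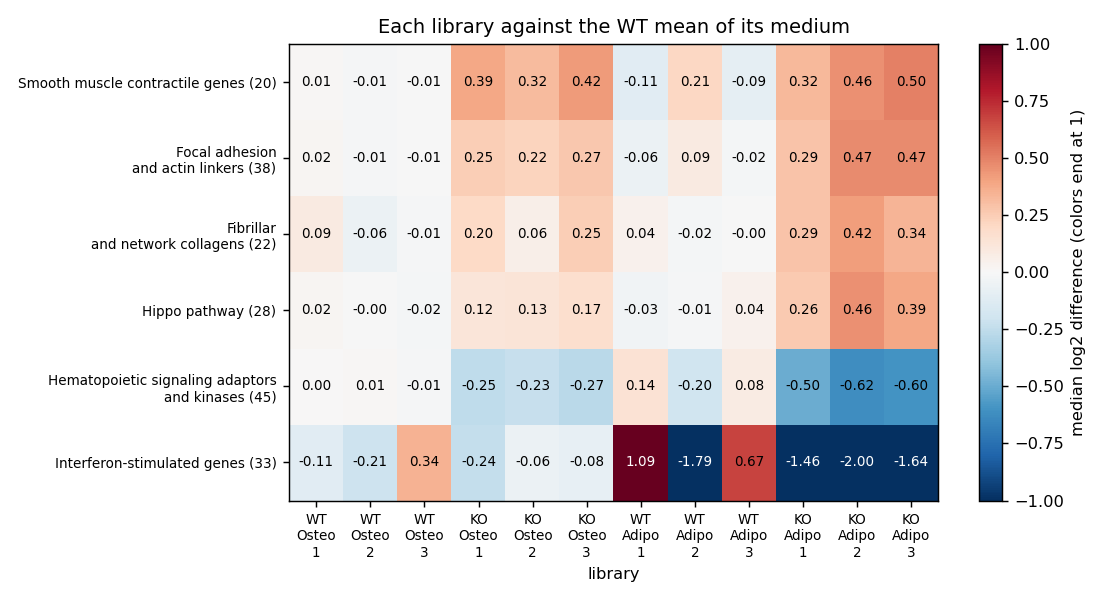
Each cell gives, for 1 library (horizontal axis) and 1 gene list (vertical axis, tested members in parentheses), the median over members of the log2(FPKM + 1) difference from the WT mean of the same medium, with colors ending at 1. KO medians of the 4 upper lists run from 0.06 to 0.50 and of the hematopoietic list from -0.62 to -0.23, while interferon genes differ in adipogenic medium and separate WT_Adipo 2 (-1.79) from WT_Adipo 1 (1.09).

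The remaining leading decreases had no common list. Nipsnap3b, a mitochondrial protein of the NIPSNAP family, was at 24, 25.5 and 25.3 FPKM in WT_Osteo, 13.5, 14.7 and 14.2 in KO_Osteo, 33.7, 27.5 and 35.1 in WT_Adipo, and 13.4, 12.7 and 12.5 in KO_Adipo. All KO libraries were far below WT, and Nipsnap3b differed by -1.01 ± 0.09 (adjusted p = 0.000252). Lrmda, a gene of melanocyte differentiation, was at 1.26, 1.29 and 1.19 FPKM in WT_Osteo, 0.205, 0.0611 and 0.121 in KO_Osteo, 3.39, 1.21 and 2.62 in WT_Adipo, and 0.314, 0.0977 and 0.194 in KO_Adipo. KO values of Lrmda rest on as few as 3 fragments, and the difference was -1.22 ± 0.15 (adjusted p = 0.00101). Lrmda, and Brinp3 below, reached 1 FPKM in WT libraries alone, through which they passed the low-value filter. Atf3, a stress-induced transcription factor, was at 55.1, 52.7 and 52.6 FPKM in WT_Osteo, 35.9, 41.8 and 36.6 in KO_Osteo, 85.4, 66 and 73.4 in WT_Adipo, and 29.4, 37.4 and 38.9 in KO_Adipo. It differed by -0.78 ± 0.12 (adjusted p = 0.00252), with a larger decrease in adipogenic medium (interaction of -0.59 (adjusted p = 0.0248)). Raet1e, a ligand of the NKG2D receptor, differed by -0.96 ± 0.15 (adjusted p = 0.00312), Il18bp, a secreted interleukin 18 inhibitor, by -0.69 ± 0.12 (adjusted p = 0.00416) and Coro2a, a coronin, by -0.73 ± 0.10 (adjusted p = 0.00139). Brinp3 and Gm6685 differed by -0.73 ± 0.10 (adjusted p = 0.00139) and -0.74 ± 0.12 (adjusted p = 0.00329) at low levels, and reads of Raet1e and Gm6685 could come from related genes. Pld4, the nuclease shown above, differed by -0.73 ± 0.11 (adjusted p = 0.00201).

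Metabolic lists held 1 or 2 shared genes each or none, where all genes tested gave 3.32%. Over both media, 8.54% of all genes tested were higher and 5.79% lower. Of 34 genes of fatty acid uptake and lipid droplets, 3 rose over both media and 4 fell, with 1 shared gene each way. Slc27a1, the fatty acid transporter FATP1, was at 30.7, 32.2 and 29.9 FPKM in WT_Osteo, 19.3, 17.8 and 18.4 in KO_Osteo, 34.9, 29.4 and 37.4 in WT_Adipo, and 26, 23.1 and 23.5 in KO_Adipo. It was lower in every KO library of both media, by -0.59 ± 0.07 (adjusted p = 0.000743). Scd1, which desaturates fatty acids, was at 17.7, 17.1 and 17.5 FPKM in WT_Osteo, 22.6, 21.7 and 23 in KO_Osteo, 16, 14.4 and 17.7 in WT_Adipo, and 19, 21.2 and 19.2 in KO_Adipo. It was higher in KO by a small margin, 0.32 ± 0.05 (adjusted p = 0.00265). Pltp, the phospholipid transfer protein, differed by -0.59 ± 0.09 (adjusted p = 0.00329). Taldo1, transaldolase of the pentose phosphate pathway, differed by -0.54 ± 0.10 (adjusted p = 0.00771), mostly in adipogenic medium (interaction of -0.64 (adjusted p = 0.000333)), and was the shared gene of 27 NRF2 targets, of which 1 rose and 6 fell. Sdf2l1, a chaperone cofactor of the endoplasmic reticulum, differed by -0.57 ± 0.10 (adjusted p = 0.00488) and was the shared gene of 24 unfolded protein response genes, of which 1 rose and 6 fell. Ptgis, prostacyclin synthase, rose by 0.64 ± 0.07 (adjusted p = 0.000754) and was the shared gene of 18 prostaglandin and cAMP genes, of which 3 rose and 4 fell. Ptgis reached 1 FPKM in KO libraries alone, through which it passed the low-value filter. Rplp0, a ribosomal stalk protein, rose by 0.21 ± 0.04 (adjusted p = 0.00577), as the shared gene of 49 ribosomal protein genes, of which 2 rose and none fell. Single shared genes also came from the imprinted list (Sgce, 0.24 ± 0.04 (adjusted p = 0.00252), in 14 genes) and the chemokine list (Cxcr6, 0.55 ± 0.09 (adjusted p = 0.00362), in 24 genes).

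**Figure D5:**
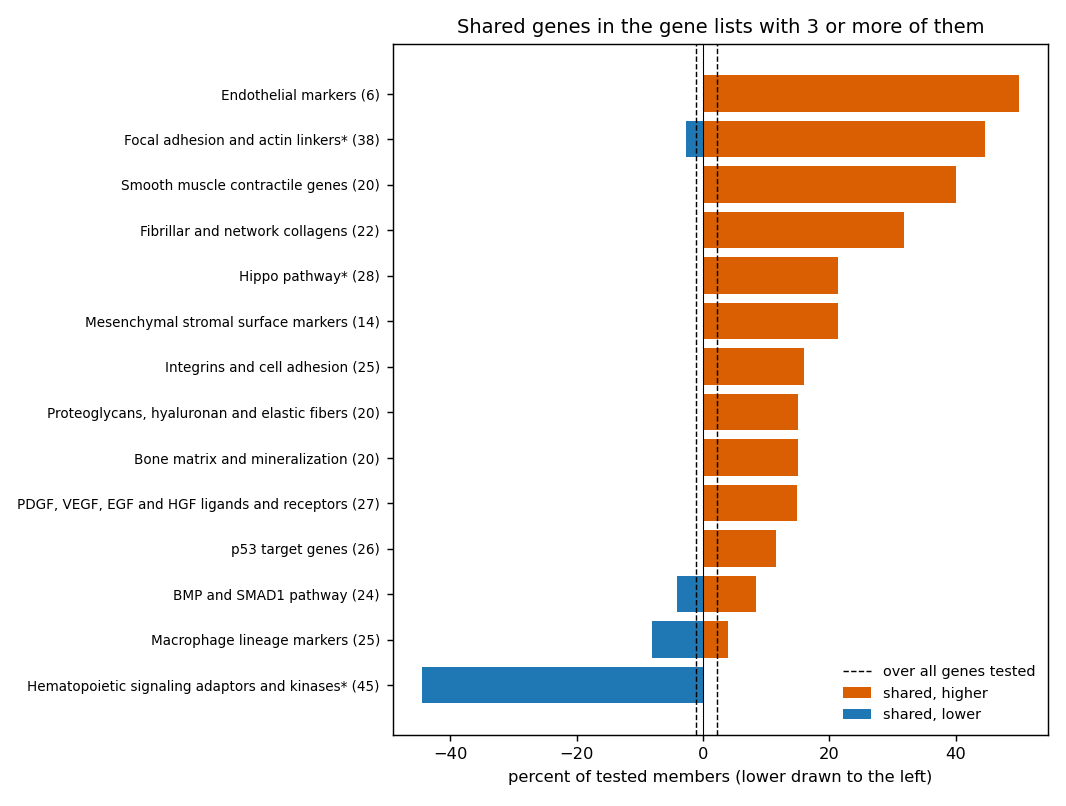
Bars give the percent of tested members (horizontal axis, members in parentheses) that were shared higher (orange, right) or shared lower (blue, left) for each list with 3 or more shared genes, and dashed lines the shares over all genes tested (2.21% and 1.12%). An asterisk marks lists chosen after the values were seen, and all lists were chosen with earlier results of these data known.

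Few shared genes passed the test of a difference between media, which the rule that defines them itself disfavors. The interaction of genotype and medium passed for 2757 genes (24.8%), and for 55 of the 369 shared genes, 44 of which moved more in adipogenic and 11 more in osteogenic medium. After F2r and Pgf, the largest of these were in Kazn, which encodes the junction protein kazrin, Parm1, a membrane mucin, and Klhl30, a kelch family protein. Parm1 was at 3.98, 3.93 and 3.71 FPKM in WT_Osteo, 5.26, 5.26 and 5.54 in KO_Osteo, 6.33, 6.19 and 6.25 in WT_Adipo, and 15.4, 17.9 and 18.8 in KO_Adipo. Its adipogenic difference was the larger, with 0.38 in osteogenic and 1.33 in adipogenic medium. Klhl30 was at 0.732, 0.693 and 0.678 FPKM in WT_Osteo, 2.99, 2.52 and 2.77 in KO_Osteo, 0.158, 0.402 and 0.30 in WT_Adipo, and 0.552, 0.481 and 0.46 in KO_Adipo. Klhl30 reached 1 FPKM in KO_Osteo alone, through which it passed the low-value filter. Its osteogenic difference was the larger, with 1.14 in osteogenic and 0.22 in adipogenic medium, and for Kazn the values were 0.28 in osteogenic and 1.30 in adipogenic medium. The other 314 shared genes did not pass this test, which does not show that their differences were equal. Without WT_Adipo 2 the interaction passed for 5434 genes.

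Of the genes named for the fates the media favor, Runx2, Fabp4, Pparg, Sp7 and Bglap were not shared, and Adipoq was not tested. Other bone genes, among them Spp1, Bgn and Prrx1, were shared higher, as given above. Runx2, the master factor of osteoblasts, was at 3.7, 3.58 and 3.73 FPKM in WT_Osteo, 2.88, 2.6 and 2.86 in KO_Osteo, 3.1, 3.34 and 2.69 in WT_Adipo, and 3.54, 4.2 and 4.02 in KO_Adipo. It was lower in KO in osteogenic and higher in adipogenic medium, -0.31 (adjusted p = 0.0215) in osteogenic and 0.28 (adjusted p = 0.0113) in adipogenic medium, with an interaction of 0.59 (adjusted p = 0.00248). Fabp4, the lipid carrier of adipocytes and macrophages, was at 33.7, 35.3 and 36 FPKM in WT_Osteo, 22.1, 22.5 and 19.8 in KO_Osteo, 12.7, 19.6 and 13 in WT_Adipo, and 39.1, 35.2 and 39.2 in KO_Adipo. Its differences were also opposite, -0.68 (adjusted p = 0.0092) in osteogenic and 1.29 (adjusted p = 6.62e-05) in adipogenic medium. Pparg, the master factor of adipocytes, did not pass over both media at 0.31 ± 0.23 (adjusted p = 0.382), nor did Sp7, the osteoblast factor osterix, at 0.26 ± 0.17 (adjusted p = 0.324). Bglap, osteocalcin, rose over both media by 0.41 ± 0.11 (adjusted p = 0.0349) at 0 to 1.72 FPKM. Bglap reached 1 FPKM in KO_Adipo alone, through which it passed the low-value filter. Adipoq, adiponectin, was at 0 to 0.60 FPKM and not tested.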

How the data were processed

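RNA of 12 cultures was sequenced in 4 groups of 3. Values are FPKM (fragments per kilobase of gene, scaled to library size) as deposited by the authors; the labels list Bowtie 0.12.2 and mm9 without saying that they made this table, while the paper's reporting summary lists HISAT2 and Ballgown, and 0 per-sample columns were left unused. Fragment numbers were recovered from FPKM and gene lengths: under 30 fragments, 98.2% to 98.4% of values per library were whole within 0.02. log2(FPKM + 1) of 11110 protein-coding genes above the low-value filter (FPKM of 1 or more in 3 or more libraries) was fitted in limma 3.58.1 (R 4.3.3) with a mean-variance trend, as medium plus genotype and as 4 group means with contrasts per medium and their interaction. A gene that reaches 1 FPKM in 1 genotype alone can pass this filter. P-values are two-sided, Benjamini-Hochberg adjusted over all genes tested, called under 0.05, and ± is the standard error unless SD is written. Tables and figures used Python 3.11.15, pandas 2.3.3, numpy 2.4.6 and matplotlib 3.10.9, and the procedure was tested on simulated data.

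The members and lists were chosen with earlier results of these data known, and lists have counts and medians with no test. Named are Chd7, genes within 2 Mb of it, and the 12 largest shared increases and 12 largest shared decreases without overlap. Also named are the 5 most abundant shared genes each way changed at least 1.5-fold, up to 4 shared genes with the lowest p and the most abundant gene per list or marker list, the 5 largest shared interactions, and Pparg, Runx2, Fabp4, Adipoq, Sp7 and Bglap. Other names were chosen after their values were seen, and 2 genes that the rule names are not reported here. Alternatives were a pseudocount of 0.1, no filter, TPM, median ratio scaling, no trend, averaged group means, a replicate block, all genes, voom and leaving out each library. Replicate numbers did not pair libraries (residual r from -0.527 to 0.629), so no block was used.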

Additional observations from a re-analysis of the deposited data

Results flagged for a closer look

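For these named genes the genotype difference itself differed between media by the interaction test in limma at an adjusted p under 0.05. Values are the log2 difference in adipogenic minus that in osteogenic medium. Among shared higher genes these were 1.44 for F2r, 1.31 for Pgf, 1.02 for Kazn, 0.95 for Parm1, 0.77 for Phlda3, 0.72 for Col4a1, 0.71 for Col11a1, 0.63 for Adamts12, 0.53 for Spry1, 0.45 for Lama5, 0.23 for Rarg and 0.18 for Lamb1. Shared higher genes with the larger increase in osteogenic medium were Klhl30 at -0.92, Plvap at -0.61, Emcn at -0.41 and Col8a1 at -0.24. Among shared lower genes the values were -0.64 for Taldo1, -0.59 for Atf3, -0.54 for Sdf2l1, -0.49 for Pld4, -0.47 for Nipsnap3b, -0.44 for Pltp and -0.25 for Alox5ap, and 0.56 for Id2, which fell more in osteogenic medium. Named genes that were not shared had differences of 2.20 for Gdf6, 1.97 for Fabp4, 1.61 for Mt1, 0.87 for Csf1, 0.73 for Ccng1, 0.70 for C1qb, 0.59 for Runx2, 0.40 for Psap and 0.32 for Atf4. Negative differences among them were -1.80 for Hmox1, -1.66 for Fth1, -1.55 for Lyz2, -1.53 for Tubb3, -1.31 for Grem1, -0.75 for Nrp2, -0.67 for Shox2, -0.45 for Smo, -0.45 for Calr and -0.38 for Adcy7. Groups of 3 are too small for an outlier rule on single libraries.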

How the results depend on the processing

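Of 3611 values of 157 named genes under the alternatives, 3467 kept their direction and side of the threshold, 63 lost and 38 gained the call, and 43 changed sign, all in genes not called over both media. Of 168 list medians over 56 lists, 126 moved by less than the spread and 42 by more. A replicate block (fixed) gave 332 shared genes, 300 of them among the 369, and an estimated block correlation (-0.267) gave 326, 322 of them among the 369. Genes over both media numbered 1592 as reported, 1037 on the TPM scale, 1097 with the fixed block, 3004 with averaged group means and 2800 with the estimated block correlation. Leaving out single libraries gave 893 to 2589. Shared genes numbered 157 on the TPM scale, 1365 without WT_Adipo 2 and KO_Adipo 1 together, a choice made after seeing the data, and 173 to 1092 without single libraries. The interaction passed for 1726 genes with the estimated correlation, 5896 without both libraries and 1939 to 5434 without single ones. Osteogenic calls numbered 578 on the TPM scale, 3809 without both libraries and 595 to 2963 without single ones. Adipogenic calls numbered 6554 without both libraries and 2916 to 6365 without single ones. The cause was not tested.

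Log2 differences over both media that changed sign on the TPM scale were 0.0053 for Chd7, 0.0582 for Atf4, 0.0475 for Timp1, 0.0328 for Psap, 0.0042 for Cfl1 and 0.0554 for Runx2. Without both libraries they were -0.0362 for C1qb and -0.0065 for Cox8a. Leaving out single libraries gave -0.0192 to 0.0724 for Col1a1, -0.1172 to 0.0460 for Timp1, -0.0331 to 0.0978 for Insig1, -0.0654 to 0.1353 for Lfng and -0.0384 to 0.1689 for Dhrs3. The ranges were -0.4064 to 0.0171 for Ccl7, -0.0787 to 0.0544 for C1qb, -0.0076 to 0.0434 for Cox8a and -0.0726 to 0.0366 for Runx2. Depth limits low genes: values under 0.143 to 0.185 FPKM on a 1-kilobase gene rest on fewer than 3 fragments, and counting error is not the spread between cultures.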

Other observations

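Other gene lists moved differently in the media or held no shared gene, where 8.54% of all genes tested were higher and 5.79% lower over both media and 3.32% shared. Of 33 interferon-stimulated genes, 1 fell over both media and none rose or was shared, and the list median was -0.09 in osteogenic and -1.76 in adipogenic medium. Bst2, the most abundant of them, was at 111, 99 and 143 FPKM in WT_Osteo, 119, 112 and 114 in KO_Osteo, 499.6, 93.8 and 361 in WT_Adipo, and 119, 92.2 and 93 in KO_Adipo. It was high in WT_Adipo 1 and 3 and near the osteogenic level in WT_Adipo 2, beside the lymphoid and macrophage sums that split those libraries in the same way, whose part was not tested. Of 22 genes of MHC class I and antigen presentation, 3 fell, none rose and none was shared, and of 24 cytokine and NF-kB genes 1 rose, Csf1, the macrophage growth factor, by 0.66 ± 0.14 (adjusted p = 0.0134). Of 14 glucocorticoid-induced genes none passed over both media with limma, while the list medians were -0.30 in osteogenic and 0.99 in adipogenic medium. The dexamethasone dose differs between the media but not between the genotypes within a medium, and its part was not tested. Mt1, a metallothionein and the most abundant of them, differed by -0.31 (adjusted p = 0.0431) in osteogenic and 1.30 (adjusted p = 4.14e-06) in adipogenic medium. Of 16 clock genes 1 rose, of 12 Notch genes 1 rose, of 20 Hox and limb identity genes 5 rose and of 13 neural genes 3 rose, none fell and none was shared.

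No shared gene came from 13 adipogenic transcription factors (1 rose), 25 cholesterol genes (1 rose, 3 fell), 18 H3K4 methylation genes (2 fell), 33 ribosome biogenesis genes (5 rose, 1 fell), 47 oxidative phosphorylation genes (2 rose), 28 glycolysis genes (1 fell), 32 lysosome genes (1 fell), 16 iron genes or 7 osteoclast genes. Of 16 complement genes 2 rose and 1 fell, with C1qa shared, and of 27 ATF4 targets 4 rose, with Sesn2 shared. The medians of the H3K4 methylation, cholesterol, complement and lysosome lists were negative on the FPKM and positive on the TPM scale. By chromosome, the shared genes made up 5.19% of the tested genes on chromosome 4 and 1.91% on chromosome 12, the highest and lowest shares, against 3.32% of all genes tested.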
